A study of Mus musculus with 18 samples.

Results

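The genes described here are 56 listed factors of nucleolar ribosome biogenesis, the assembly line that turns ribosomal DNA into ribosomal subunits. They were chosen by name, as every probe set whose only gene symbol is a listed member. Mrto4 had no such probe set. The other 55 had 119 probe sets between them, and all 55 were among the 15005 genes tested of 18193 genes with a symbol on the array. RNA was measured in 18 mouse melanoma allografts grown from iNRAS-475, 1 cell line that carries an NRAS oncogene kept on by doxycycline. The hosts were nude mice, a strain without mature T cells, injected in the skin, and the labels do not say whether each tumour had a mouse of its own. All hosts drank 2 mg/ml doxycycline while tumours grew over 6 weeks to 200 to 500 mm3. Of the 3 groups of 6 distinct tumours, the vehicle group received vehicle and the MEK inhibitor group received 100 mg/kg AZD6244, an inhibitor of the kinases MEK1 and MEK2 below RAS, for 4 days. In the NRAS-off group doxycycline was withdrawn for 4 days, so that oncogene loss and absence of the drug cannot be told apart.

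In the nucleolus, RNA polymerase I (Pol I) copies ribosomal DNA into a long precursor. Small nucleolar ribonucleoproteins (snoRNPs) modify its nucleotides, and the small subunit (SSU) processome folds and cuts it. Separate sets of factors then finish the 40S and 60S subunits, and abundant nucleolar proteins such as nucleolin organise the compartment. The transcription factor MYC is known to drive many of these genes, and tumours that grow fast commonly have large nucleoli.

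Nearly all of these genes were lower in both treated groups than in vehicle tumours. In NRAS-off tumours 51 of 55 fell and 0 rose, against 27.5% of all genes tested that fell and 31.8% that rose. In MEK inhibitor tumours 48 of 55 fell and 0 rose, against 20.9% of all genes that fell and 24.3% that rose. At an unadjusted p under 0.05 the limma fit still gave 0 members higher in either comparison, with 52 and 51 lower. Of all 15005 genes, 4403 were lower and 5019 higher in NRAS-off at this p, and 3538 lower and 4129 higher in MEK inhibitor tumours. The median log2 change was −0.55 in NRAS-off and −0.57 in MEK inhibitor tumours, and the medians of all genes tested were 0.00 and 0.01. For members this is 68.1% and 67.3% of the vehicle value of intensity + 16. Changes are on the log2(intensity + 16) scale, a change passed at a limma adjusted p under 0.05 over all genes, and errors are SE with 6 tumours per group. Both comparisons use the same 6 vehicle tumours. In bulk tumours fewer cells of a type and less RNA per cell cannot be told apart.

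For most members the treated tumours did not overlap the vehicle tumours. All 6 NRAS-off tumours lay below all 6 vehicle tumours for 48 members, against 18.4% of all genes tested. All 6 MEK inhibitor tumours lay below vehicle for 44 members, against 12.7% of all genes. No member had all treated tumours above vehicle, beside 20.8% of all genes in NRAS-off and 12.8% in MEK inhibitor tumours. The mean log2 value of the 55 members lay between 9.73 and 9.82 in the vehicle tumours (median 9.76), between 9.18 and 9.29 in the NRAS-off tumours (median 9.22) and between 9.14 and 9.31 in the MEK inhibitor tumours (median 9.22). The treated groups overlapped each other on this mean, and neither overlapped vehicle.

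**Figure D1:**
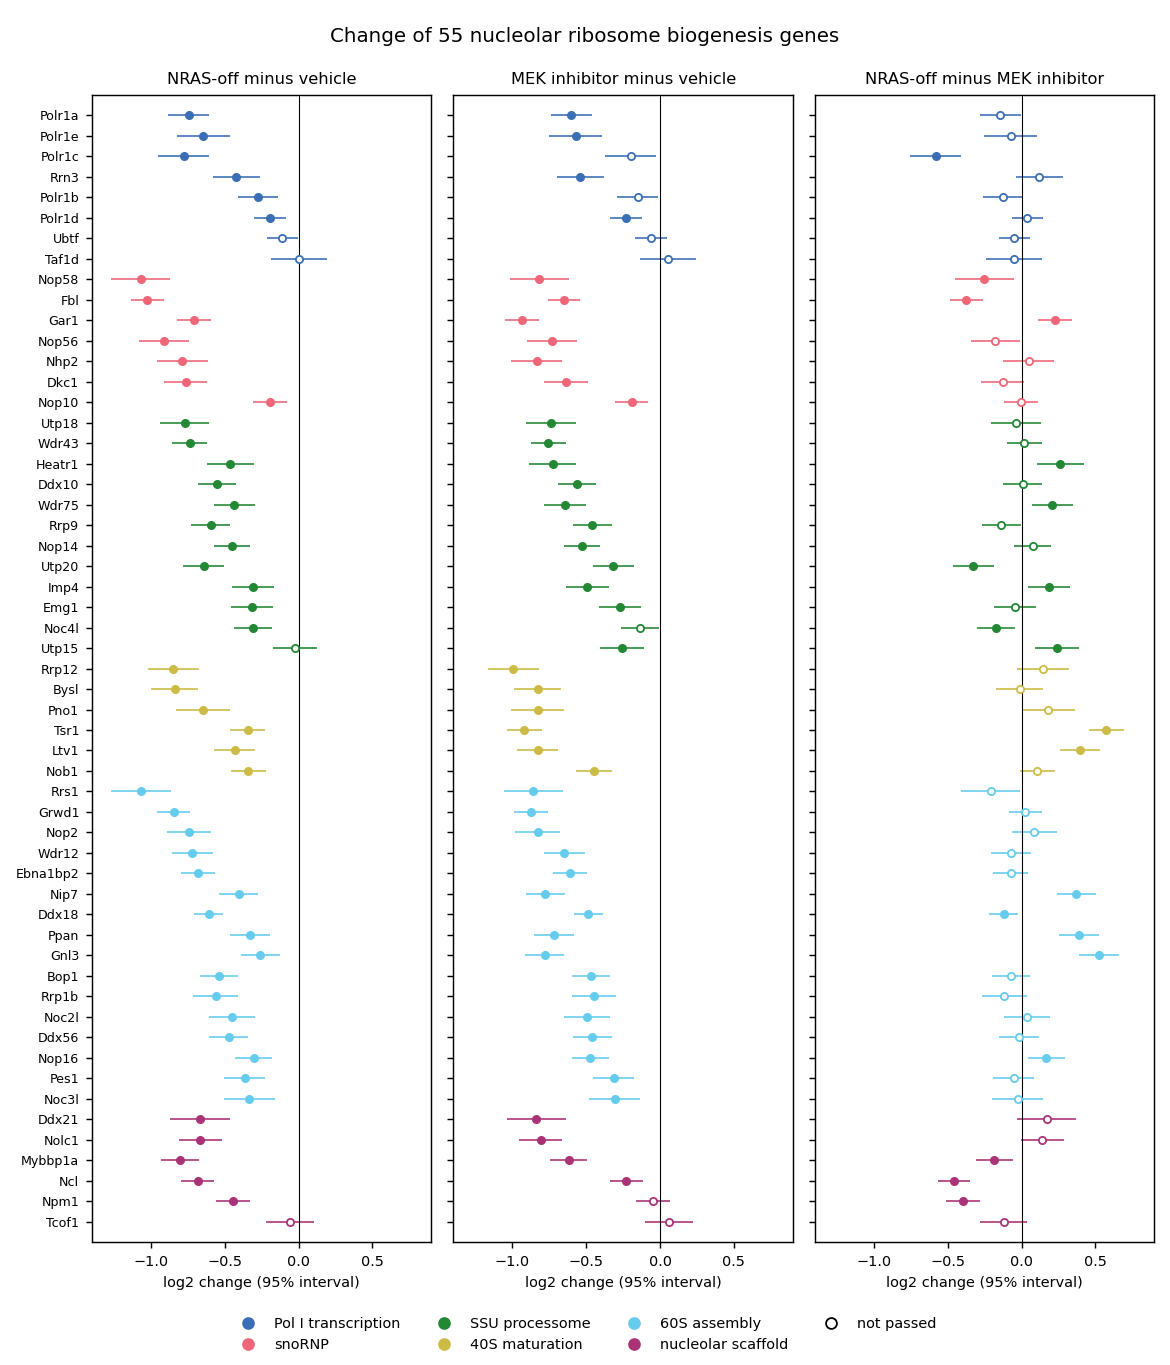
Log2 change with its 95% interval of each of the 55 members, coloured by role, in the comparisons of NRAS-off with vehicle, MEK inhibitor with vehicle and NRAS-off with MEK inhibitor tumours (6 per group, open points not passed). In the first 2 panels nearly all points lie left of 0, with 51 and 48 members past the threshold, and in the third they lie on both sides.

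**Figure D2:**
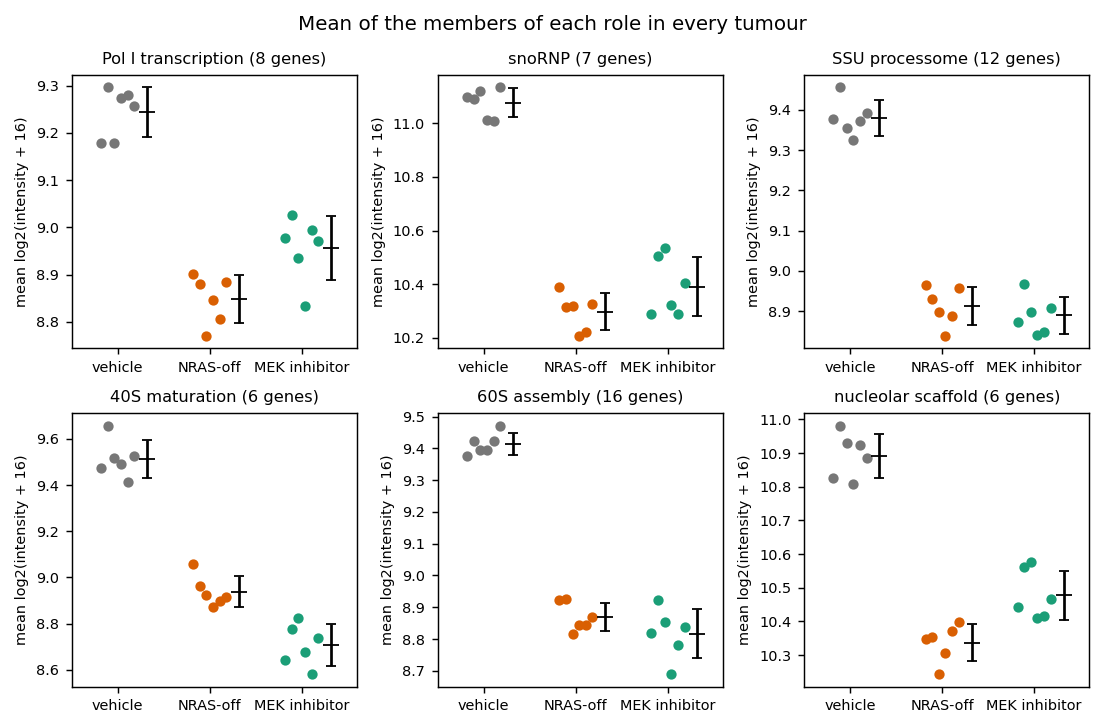
Mean log2(intensity + 16) of the members of each role in every tumour, 6 per group, with the group mean ± SD beside the points; the vertical axes do not start at 0 and differ between panels. In all 6 panels the treated tumours lie below the vehicle tumours, and the treated groups stand apart from each other in the panels of 40S maturation and the nucleolar scaffold.

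Of the 55 members, 47 fell in both groups and 3 passed in neither (Ubtf, Tcof1 and Taf1d). Polr1c, Npm1, Noc4l and Polr1b passed in NRAS-off tumours and not in MEK inhibitor tumours, while Utp15 passed in MEK inhibitor tumours and not in NRAS-off tumours. The test of the difference between the treated groups passed for Polr1c, Npm1, Noc4l and Utp15, and did not pass for Polr1b. Counted by role, 7 of 7 snoRNP proteins, 6 of 6 factors of 40S maturation and 16 of 16 tested factors of 60S assembly fell in both comparisons. Of 12 SSU processome genes 11 fell in each. Pol I transcription genes fell in 6 of 8 cases in NRAS-off and in 4 of 8 in MEK inhibitor tumours, and nucleolar scaffold genes in 5 of 6 and 4 of 6. Median changes in NRAS-off and MEK inhibitor tumours were −0.35 and −0.22 for Pol I genes, −0.79 and −0.73 for snoRNP proteins, and −0.46 and −0.51 for the SSU processome. They were −0.54 and −0.83 for 40S maturation, −0.51 and −0.55 for 60S assembly, and −0.67 and −0.42 for scaffold genes. Differences between roles were not tested.

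Averaged over a role, all 12 treated tumours lay below all 6 vehicle tumours in each of the 6 roles. The mean of the 40S maturation genes was 9.41 to 9.66 in vehicle, 8.87 to 9.06 in NRAS-off and 8.58 to 8.82 in MEK inhibitor tumours, so that the 3 groups did not overlap. The scaffold genes had the opposite order of the treated groups, also without overlap, at 10.81 to 10.98 in vehicle, 10.24 to 10.40 in NRAS-off and 10.41 to 10.58 in MEK inhibitor tumours. For Pol I, snoRNP, SSU processome and 60S genes the treated groups overlapped.

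Because the members fell together, their promoters were searched for 2 short motifs. One is the E-box CACGTG, which reads the same on both strands and to which MYC with its partner MAX can bind, and the other is the ETS core CCGGAA, read also as TTCCGG on the other strand, and the motifs do not contain each other. RefSeq promoter windows (GRCm38.p6, 250 bases before to 50 after the start) were found for 49 of the 55 tested members. The E-box stood in 12 of 49 (24.5%), against 11.1% of the 11995 tested genes that have a window and 7.15% of all 32851 windows. The ETS core stood in 23 of 49 (46.9%), against 27.2% and 14.9%. Of the 13 E-box matches in members, 8 (61.5%) began after the start, against 13.2% of 1582 matches in the tested genes. The median changes of the 12 members with an E-box were −0.65 in NRAS-off and −0.75 in MEK inhibitor tumours, against −0.47 and −0.53 in the 37 without. The 23 members with an ETS core had −0.60 and −0.73 against −0.46 and −0.48 in the 26 without. Neither gap was tested. Grwd1, Nop2, Utp18, Tsr1, Ltv1 and Rrn3 carried both motifs, so the 2 gaps rest partly on the same genes. None of the 6 snoRNP promoters held an E-box. In 40S maturation the 3 genes with one had medians of −0.43 in NRAS-off and −0.83 in MEK inhibitor tumours, against −0.59 and −0.64 in the 2 without. In 60S assembly the 3 with one had −0.74 and −0.83, against −0.45 and −0.49 in the 11 without. In the SSU processome the 4 with one had −0.69 and −0.61, against −0.44 and −0.49 in the 8 without. Pol I transcription and the scaffold each had 1 gene with an E-box. A match describes letters and does not show that a factor binds there. Example windows are printed for 1 gene of Pol I transcription, 1 of the SSU processome, 1 of 40S maturation and 2 of 60S assembly. The other members with an E-box, among them Pes1, Imp4 and Mybbp1a, are not printed. The printed windows run 5′ to 3′ on the strand of the gene, with the E-box in capitals. They lie at chr16:13780449-13780748 (plus strand), chr17:71615965-71616264 (plus strand), chr11:74897830-74898129 (plus strand), chr6:125131633-125131932 (plus strand) and chr7:45830740-45831039 (minus strand), in the order printed.
Rrn3: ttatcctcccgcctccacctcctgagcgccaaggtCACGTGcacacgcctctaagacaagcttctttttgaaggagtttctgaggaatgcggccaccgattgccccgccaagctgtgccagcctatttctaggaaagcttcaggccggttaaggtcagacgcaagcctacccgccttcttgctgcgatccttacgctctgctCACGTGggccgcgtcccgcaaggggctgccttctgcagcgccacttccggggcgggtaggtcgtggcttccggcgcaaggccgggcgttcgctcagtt
Wdr43: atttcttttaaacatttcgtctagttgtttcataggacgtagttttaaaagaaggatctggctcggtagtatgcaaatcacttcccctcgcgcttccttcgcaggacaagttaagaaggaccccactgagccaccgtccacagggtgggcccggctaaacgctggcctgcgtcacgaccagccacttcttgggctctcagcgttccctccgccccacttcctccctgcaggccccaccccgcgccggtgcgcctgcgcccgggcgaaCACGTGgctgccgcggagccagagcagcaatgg
Tsr1: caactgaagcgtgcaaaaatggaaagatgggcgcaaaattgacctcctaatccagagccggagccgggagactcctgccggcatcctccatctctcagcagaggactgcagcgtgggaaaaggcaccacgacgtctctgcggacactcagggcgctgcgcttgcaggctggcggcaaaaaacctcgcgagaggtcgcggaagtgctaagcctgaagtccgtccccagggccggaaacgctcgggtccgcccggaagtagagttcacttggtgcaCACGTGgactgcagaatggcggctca
Nop2: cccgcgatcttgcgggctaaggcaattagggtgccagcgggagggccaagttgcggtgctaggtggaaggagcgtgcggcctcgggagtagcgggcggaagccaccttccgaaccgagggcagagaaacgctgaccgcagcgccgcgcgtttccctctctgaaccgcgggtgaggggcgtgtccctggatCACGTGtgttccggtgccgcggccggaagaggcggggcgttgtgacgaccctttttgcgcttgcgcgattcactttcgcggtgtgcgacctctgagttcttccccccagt
Grwd1: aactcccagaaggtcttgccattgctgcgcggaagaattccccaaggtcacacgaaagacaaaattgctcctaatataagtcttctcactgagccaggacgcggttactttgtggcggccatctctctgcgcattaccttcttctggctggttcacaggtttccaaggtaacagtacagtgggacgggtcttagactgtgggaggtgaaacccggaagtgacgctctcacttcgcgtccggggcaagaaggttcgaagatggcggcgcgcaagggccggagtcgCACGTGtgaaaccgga
In Rrn3 the E-boxes begin 215 and 48 bases before the start, and in Nop2 the single match begins 60 bases before it. The Wdr43, Tsr1 and Grwd1 matches begin after the start, at positions 18, 25 and 35. Rrn3 is the 1 member with 2 matches.

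All 5 Pol I subunits fell in NRAS-off tumours and 3 of 5 in MEK inhibitor tumours. Polr1a, the largest catalytic subunit, had intensities of 259 to 310 (median 278) in vehicle, 146 to 178 (median 160.0) in NRAS-off and 153 to 201 (median 183) in MEK inhibitor tumours. Its changes were −0.75 ± 0.07 (adjusted p = 1.52e-08) and −0.60 ± 0.07 (adjusted p = 6.46e-07), and neither treated group overlapped vehicle. Polr1e, a subunit that with its partner helps the enzyme start, went from 211 to 337 (median 289) in vehicle to 169 to 186 (median 172) and 151 to 201 (median 191). The corresponding changes were −0.64 ± 0.09 (adjusted p = 2.88e-06) and −0.57 ± 0.09 (adjusted p = 2.54e-05). Polr1b, the second catalytic subunit, was at 66.5 to 78.0 (median 71.7) in vehicle, 46.2 to 70.8 (median 56.4) in NRAS-off and 56.5 to 66.5 (median 64.6) in MEK inhibitor tumours. Only the NRAS-off change passed (−0.28 ± 0.07, adjusted p = 0.00126), and those tumours overlapped vehicle. The MEK inhibitor change was −0.15 ± 0.07 (adjusted p = 0.0672).

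Polr1c and Polr1d are shared with RNA polymerase III, which makes transfer RNA and 5S ribosomal RNA. Polr1c lay at 1083 to 1425 (median 1218) in vehicle, 605 to 881 (median 718) in NRAS-off and 979 to 1152 (median 1111) in MEK inhibitor tumours. It changed by −0.78 ± 0.08 (adjusted p = 1.46e-07) in NRAS-off tumours, which overlapped neither other group. In MEK inhibitor tumours the change was −0.20 ± 0.08 (adjusted p = 0.0565), and the treated groups differed by −0.58 ± 0.08 (adjusted p = 9.76e-06). A second Polr1c probe set changed by −0.43 and −0.42, with a difference of −0.01 between the groups, so the difference rests on the brighter probe set. Polr1d stood at 4272 to 5149 (median 4527) in vehicle, 3703 to 4257 (median 4090) in NRAS-off and 3721 to 4118 (median 3898) in MEK inhibitor tumours. Both changes passed without overlap but were small, at −0.19 ± 0.05 (adjusted p = 0.00291) and −0.23 ± 0.05 (adjusted p = 0.000971).

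Of the factors that bring Pol I to its promoter, Rrn3 fell in both groups, and the calls for Ubtf and Taf1d depended on the probe set. Rrn3, which links the polymerase to the promoter complex in growing cells, was at 412 to 527 (median 452) in vehicle, 309 to 372 (median 338) in NRAS-off and 251 to 345 (median 324) in MEK inhibitor tumours. The changes were −0.42 ± 0.08 (adjusted p = 8.47e-05) and −0.54 ± 0.08 (adjusted p = 1.09e-05), with no overlap with vehicle. Ubtf, an architectural factor of active ribosomal DNA, was at 1083 to 1283 (median 1135) in vehicle, 1001 to 1165 (median 1062) in NRAS-off and 1015 to 1143 (median 1117) in MEK inhibitor tumours, which all overlap. Its changes were −0.11 ± 0.05 (adjusted p = 0.0713) and −0.06 ± 0.05 (adjusted p = 0.357). Taf1d, part of the SL1 promoter complex, was at 553 to 833 (median 734) in vehicle, 662 to 768 (median 727) in NRAS-off and 589 to 825 (median 785) in MEK inhibitor tumours, with changes of 0.00 ± 0.09 and 0.05 ± 0.09. Of the other probe sets, 4 of the 5 for Taf1d fell in both groups, with changes of −0.68 to −0.91 and −0.28 to −0.49. The second Ubtf probe set changed by −0.25, which did not pass, and by −0.43, which did. A fixed list of other Pol I genes gave no common direction, with 1 of 4 tested lower and 2 higher in NRAS-off and 2 lower and 1 higher in MEK inhibitor tumours.

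**Figure D3:**
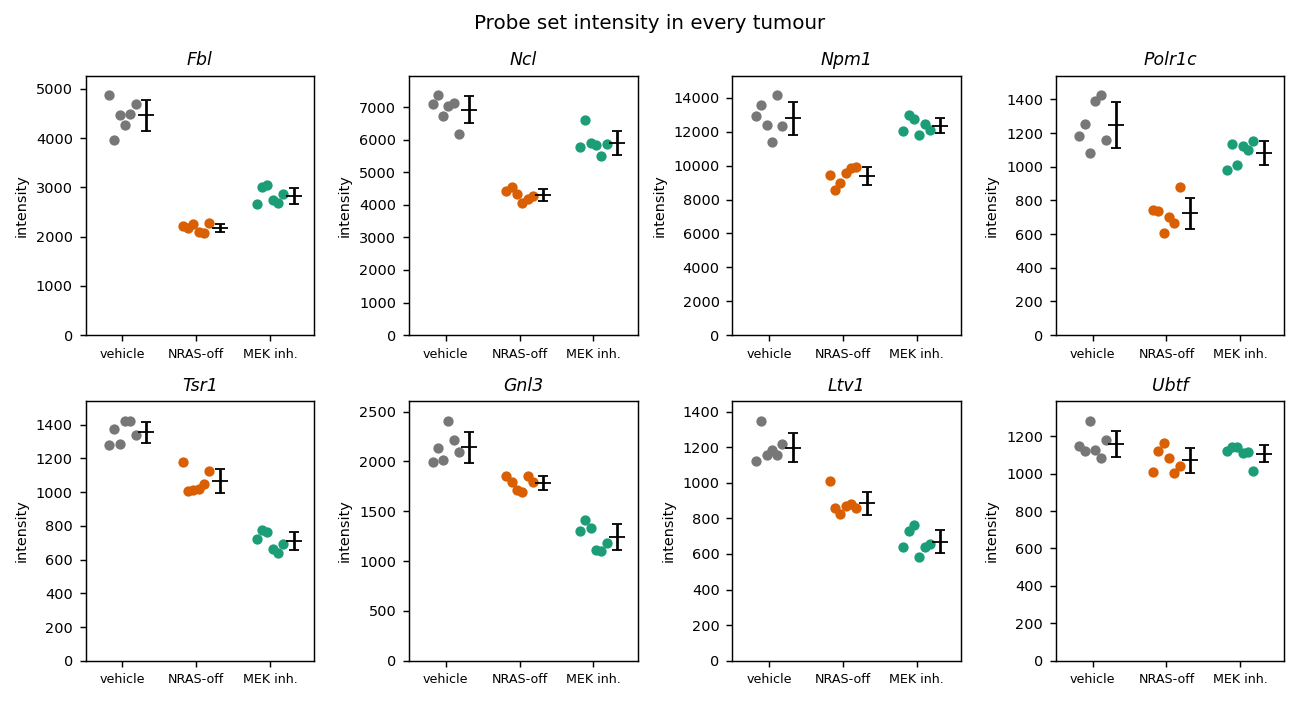
Intensity of 8 members in each of the 18 tumours by group, with the group mean ± SD beside the points, on axes that start at 0. Fbl, Ncl, Npm1 and Polr1c are lowest in NRAS-off tumours, Tsr1, Gnl3 and Ltv1 in MEK inhibitor tumours, and the 3 groups of Ubtf overlap.

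The snoRNP proteins fell in every case. Box C/D particles add methyl groups to the ribose of ribosomal RNA and box H/ACA particles convert uridine to pseudouridine. The C/D proteins Nop56, Nop58 and Fbl had a median of −1.03 in NRAS-off and −0.73 in MEK inhibitor tumours. The H/ACA proteins Dkc1, Nhp2, Nop10 and Gar1 had −0.74 in both.

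Nop58, a core C/D protein, was at 1406 to 1830 (median 1612) in vehicle, 687 to 911 (median 743) in NRAS-off and 789 to 1177 (median 851) in MEK inhibitor tumours. Neither treated group overlapped vehicle, with changes of −1.07 ± 0.09 (adjusted p = 1.52e-08) and −0.82 ± 0.09 (adjusted p = 1.19e-06). Fbl, the methyltransferase of these particles, was at 3970 to 4873 (median 4477) in vehicle, 2073 to 2275 (median 2190) in NRAS-off and 2656 to 3047 (median 2798) in MEK inhibitor tumours. The 3 groups did not overlap, with changes of −1.03 ± 0.05 (adjusted p = 1.08e-11) and −0.65 ± 0.05 (adjusted p = 1.47e-08), and the treated groups differed by −0.37 (adjusted p = 9.85e-06). Dkc1, the pseudouridine synthase, changed by −0.77 and −0.64, and Gar1, its partner, by −0.71 and −0.94. The smallest change was that of Nop10, the short protein that bridges Dkc1 and Nhp2, at −0.20 and −0.19, with tumours that overlapped vehicle in both groups.

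All but 1 of the SSU processome genes fell in each treated group. Utp18, a U3-associated protein of the processome, was at 974 to 1315 (median 1178) in vehicle, 633 to 745 (median 661) in NRAS-off and 559 to 815 (median 705) in MEK inhibitor tumours. It changed by −0.77 ± 0.08 (adjusted p = 1.19e-07) and −0.74 ± 0.08 (adjusted p = 5.64e-07) without overlap with vehicle. The second Utp18 probe set changed by −0.08 in NRAS-off tumours, which did not pass, and fell by −0.29 in MEK inhibitor tumours. Wdr43, an early-binding processome protein and 1 of the genes with an E-box after the start, was at 723 to 856 (median 748) in vehicle, 414 to 485 (median 456) in NRAS-off and 403 to 489 (median 447) in MEK inhibitor tumours, with changes of −0.74 ± 0.06 (adjusted p = 2.25e-09) and −0.76 ± 0.06 (adjusted p = 5.28e-09). Among the rest, Heatr1, Wdr75, Nop14, Rrp9, Imp4, Emg1, Ddx10 and Utp20 fell in both, by −0.31 to −0.64 in NRAS-off and −0.27 to −0.73 in MEK inhibitor tumours. Noc4l changed by −0.31 in NRAS-off and by −0.13 (adjusted p = 0.0863) in MEK inhibitor tumours. Utp15 was at 300 to 387 (median 333) in vehicle, 315 to 352 (median 327) in NRAS-off and 240 to 306 (median 289) in MEK inhibitor tumours. Its change was −0.02 ± 0.07 (adjusted p = 0.799) in NRAS-off and −0.26 ± 0.07 (adjusted p = 0.00556) in MEK inhibitor tumours, while its second probe set fell in both, by −0.35 and −0.51.

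Factors of 40S maturation fell in both groups, with a lower median under the MEK inhibitor. Rrp12, which helps export the pre-40S particle, was at 166 to 224 (median 191) in vehicle, 91.1 to 116 (median 97.7) in NRAS-off and 72.9 to 109 (median 85.3) in MEK inhibitor tumours, with changes of −0.85 ± 0.08 (adjusted p = 5.24e-08) and −0.99 ± 0.08 (adjusted p = 1.92e-08). Bysl, a pre-40S assembly factor, was at 432 to 584 (median 538) in vehicle, 261 to 344 (median 277) in NRAS-off and 269 to 319 (median 286) in MEK inhibitor tumours. Neither treated group overlapped vehicle, and the changes were −0.84 ± 0.08 (adjusted p = 1.9e-08) and −0.83 ± 0.08 (adjusted p = 6.51e-08).

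Tsr1 and Ltv1, which help hold the pre-40S particle in an inactive shape until late in its maturation, fell further under the MEK inhibitor. Tsr1 was at 1281 to 1424 (median 1356) in vehicle, 1004 to 1178 (median 1032) in NRAS-off and 640.0 to 775 (median 706) in MEK inhibitor tumours, so that the 3 groups did not overlap. Its changes were −0.34 ± 0.06 (adjusted p = 3.34e-05) and −0.92 ± 0.06 (adjusted p = 4.77e-10). Ltv1 was at 1125 to 1349 (median 1171), 824 to 1008 (median 867) and 585 to 764 (median 648) in the same order, again without overlap, with changes of −0.43 ± 0.07 (adjusted p = 1.35e-05) and −0.83 ± 0.07 (adjusted p = 1.04e-08).

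Factors of 60S assembly fell in both groups. Rrs1, which helps load the 5S particle, was at 1339 to 1672 (median 1426) in vehicle, 594 to 800 (median 673) in NRAS-off and 573 to 901 (median 843) in MEK inhibitor tumours, with changes of −1.07 ± 0.10 (adjusted p = 1.84e-08) and −0.86 ± 0.10 (adjusted p = 7.95e-07). Its probe set, like those of Polr1d and Polr1e, carries a name suffix that the manufacturer uses where probes may also bind other transcripts. Another suffix, used where probes may match several transcripts, is carried by the probe sets of 7 members (Polr1c, Nop56, Fbl, Nhp2, Gar1, Noc4l and Tsr1). Grwd1, a ribosomal protein chaperone, also with an E-box after the start, was at 450 to 531 (median 504) in vehicle, 255 to 290 (median 269) in NRAS-off and 242 to 290 (median 270) in MEK inhibitor tumours. It changed by −0.85 ± 0.05 (adjusted p = 1.73e-10) and −0.87 ± 0.05 (adjusted p = 4.92e-10), and the treated groups overlapped. Pes1, Bop1 and Wdr12, which form the PeBoW complex of 60S maturation, changed by −0.37, −0.54 and −0.72 in NRAS-off and by −0.31, −0.47 and −0.65 in MEK inhibitor tumours. The second probe set of each did not pass in NRAS-off tumours (−0.13, −0.07 and −0.25) and fell in MEK inhibitor tumours. Nop2, a methyltransferase of the large subunit RNA, changed by −0.74 and −0.83. Gnl3 (nucleostemin) was at 1989 to 2408 (median 2114) in vehicle, 1695 to 1855 (median 1797) in NRAS-off and 1102 to 1413 (median 1243) in MEK inhibitor tumours. Its 3 groups did not overlap, with changes of −0.26 ± 0.06 (adjusted p = 0.00172) and −0.78 ± 0.06 (adjusted p = 1.47e-08).

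The nucleolar scaffold held members that fell in both groups, in one or in neither. Nolc1, a chaperone of snoRNPs, was at 682 to 913 (median 758) in vehicle, 443 to 518 (median 478) in NRAS-off and 408 to 490 (median 429) in MEK inhibitor tumours, with changes of −0.67 ± 0.07 (adjusted p = 1.3e-07) and −0.81 ± 0.07 (adjusted p = 3.11e-08). Ddx21, a nucleolar RNA helicase, was at 775 to 1134 (median 906), 487 to 636 (median 569) and 431 to 595 (median 494) in the same order, with changes of −0.67 ± 0.10 (adjusted p = 6.65e-06) and −0.84 ± 0.10 (adjusted p = 9.95e-07). Neither gene's treated tumours overlapped vehicle. Of 3 Nolc1 probe sets, 1 did not pass in NRAS-off tumours, where the changes ran from −0.67 to −0.11, and all 3 fell in MEK inhibitor tumours. Tcof1, a Pol I cofactor, was at 217 to 303 (median 235) in vehicle, 193 to 260 (median 235) in NRAS-off and 237 to 275 (median 254) in MEK inhibitor tumours, with overlapping groups and changes of −0.06 ± 0.08 and 0.06 ± 0.08. Another Tcof1 probe set fell in NRAS-off tumours (−0.24).

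Nucleolin (Ncl) and nucleophosmin (Npm1), abundant organisers of the nucleolus, fell further in NRAS-off tumours. Ncl was at 6170 to 7372 (median 7070) in vehicle, 4056 to 4555 (median 4301) in NRAS-off and 5500 to 6601 (median 5857) in MEK inhibitor tumours. NRAS-off tumours overlapped neither other group (−0.68 ± 0.05, adjusted p = 1.78e-09), while MEK inhibitor tumours overlapped vehicle (−0.23 ± 0.05, adjusted p = 0.00137). Npm1 was at 11401 to 14170 (median 12668) in vehicle, 8550 to 9925 (median 9516) in NRAS-off and 11805 to 13013 (median 12299) in MEK inhibitor tumours. Its change was −0.45 ± 0.05 (adjusted p = 8.93e-07) in NRAS-off and −0.05 ± 0.05 (adjusted p = 0.507) in MEK inhibitor tumours. The second Npm1 probe set fell in both groups (−0.64 and −0.29), and the 4 Ncl probe sets ranged from −0.45 to 0.01 in MEK inhibitor tumours.

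The direct comparison asks which members differed between NRAS-off and MEK inhibitor tumours. These groups also differed in doxycycline and in markers of other cells. Of 17 macrophage markers 16 were higher in NRAS-off, and of 11 endothelial markers 10 were higher and 1 lower. The part of these in the member differences was not tested. Of 55 members 9 were lower and 11 higher in NRAS-off than in MEK inhibitor tumours, against 22.7% and 24.3% of all genes tested, so these counts are not a result about the members as a set. The median difference was −0.02. All 6 tumours of each group stood apart for 6 members lower in NRAS-off and 6 higher, against 13.3% and 15% of all genes. The lower members were led by Polr1c, Ncl (−0.46 ± 0.05, adjusted p = 6.54e-07) and Npm1 (−0.40 ± 0.05, adjusted p = 6.16e-06), followed by Fbl, Utp20, Nop58, Mybbp1a, Noc4l and Ddx18, whose probe sets disagree in direction. The higher members were led by Tsr1 (0.58 ± 0.06, adjusted p = 1.09e-07), Gnl3 (0.52 ± 0.06, adjusted p = 1.55e-06) and Ltv1 (0.40 ± 0.07, adjusted p = 5.63e-05), followed by Ppan, Nip7, Heatr1, Utp15, Gar1, Wdr75, Imp4 and Nop16. By role, 3 of 6 scaffold genes were lower in NRAS-off and 0 higher, and 2 of 6 factors of 40S maturation were higher and 0 lower. Of these 20 calls 15 held when each tumour in turn was left out, and the calls for Nop58, Imp4, Nop16, Ddx18 and Noc4l did not always hold. For the 35 members that did not pass, 14 had a 95% interval of the difference within 0.2 of 0, and the intervals reached from −0.41 (Rrs1) to 0.37 (Ddx21).

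**Figure D4:**
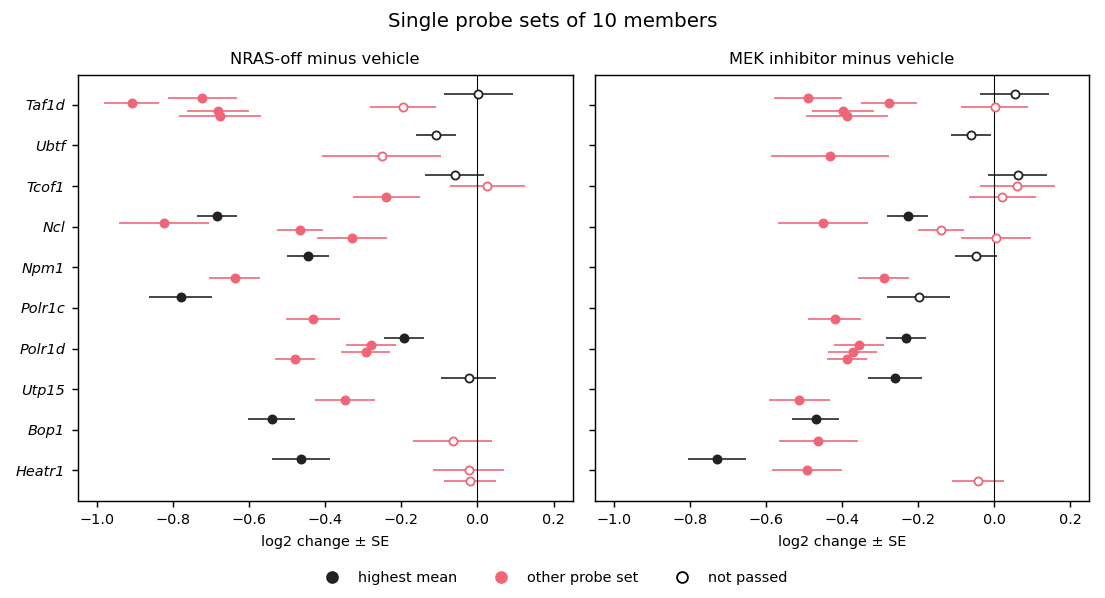
Log2 change ± SE against vehicle of every probe set above the intensity filter for 10 members. The Polr1d probe sets all fell in both panels, while the other members each had probe sets that differed in call. Filled points passed and open points did not; black marks the probe set with the highest mean, which stands for the gene.

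Each probe set was also tested on its own. Of 114 probe sets above the filter, 94 fell and 0 rose in NRAS-off tumours and 96 fell and 0 rose in MEK inhibitor tumours. Of all 27656 probe sets 28.6% and 21.9% fell, and 7683 and 5790 rose. Of the 39 members with several probe sets above the filter, 18 had all of them fall in both groups and 21 had at least 1 that did not pass in 1 or both. Of the 16 members with a single probe set 15 fell in both. The 59 probe sets that do not stand for their gene had the same call as the chosen one in 40 cases for NRAS-off and 45 for MEK inhibitor tumours, and the opposite call in 0. In the comparison of the treated groups 40 had the same call and 1 the opposite one, a dim Ddx18 probe set that was higher in NRAS-off (0.27, adjusted p = 0.00402) where the chosen one was lower (−0.12).

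Genes outside the list showed which neighbours moved alongside. Myc, the transcription factor with many ribosome biogenesis targets, was at 1336 to 2420 (median 1711) in vehicle, 376 to 641 (median 473) in NRAS-off and 313 to 430 (median 390) in MEK inhibitor tumours. Its changes were −1.84 ± 0.13 (adjusted p = 1.02e-09) and −2.19 ± 0.13 (adjusted p = 4.26e-10), and the treated groups differed by 0.35 ± 0.13 (adjusted p = 0.0403) with overlap. Myc had the lowest change of a list of 8 MYC network genes, which also holds partners and antagonists of MYC and went both ways. Of these 8, 3 were lower and 2 higher in NRAS-off (median −0.10), and 2 were lower and 4 higher in MEK inhibitor tumours (median 0.17). Of the other factors of the small subunit 24 of 34 fell in NRAS-off and 26 of 34 in MEK inhibitor tumours, and of the other large subunit factors 30 and 29 of 36, with 0 higher in each. RNA exosome genes, which trim and degrade precursors, fell in 11 of 13 cases in both. Subunits of Pol II and III were mixed, with 10 of 19 lower and 2 higher in NRAS-off and 8 lower and 2 higher in MEK inhibitor tumours.

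Cytosolic ribosomal proteins, the products that these factors assemble, had smaller median changes. Of 43 tested (79 listed), 38 fell in NRAS-off tumours (median −0.21) and 17 in MEK inhibitor tumours (median −0.08), and 0 rose in either. In the direct comparison 29 of 43 were lower in NRAS-off and 2 higher (median −0.13), beside 9 and 11 of 55 members. The G2/M genes of dividing cells went opposite ways, with 24 of 24 lower in NRAS-off (median −1.57) and 23 of 24 higher in MEK inhibitor tumours (median 0.63), while the members fell in both.

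**Figure D5:**
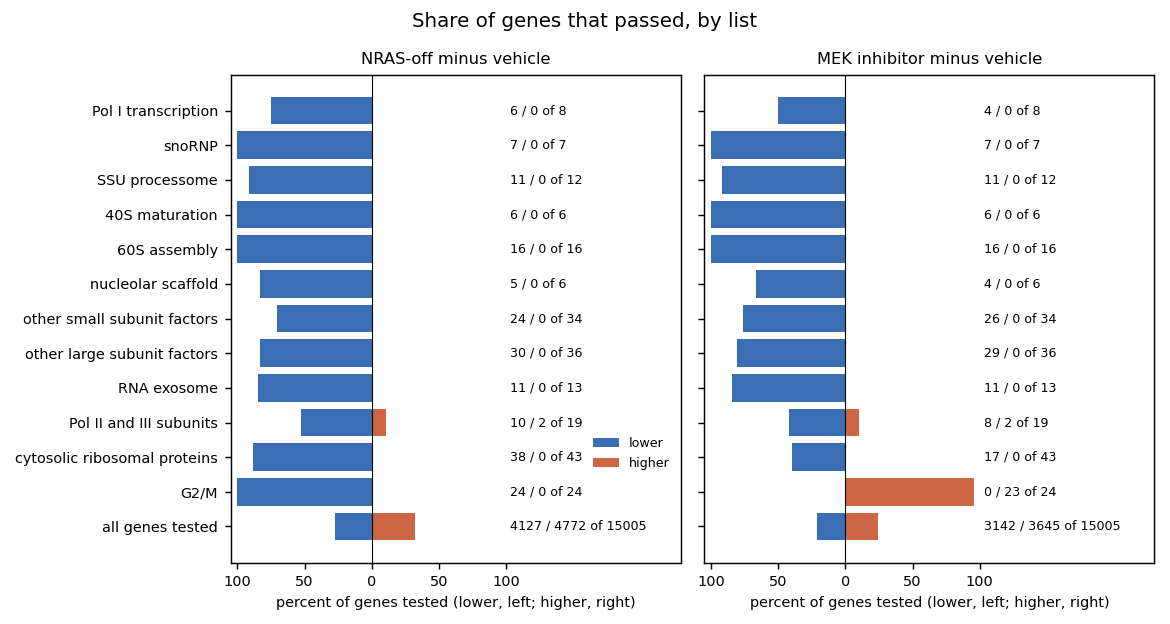
Share of genes lower (left) and higher (right) than vehicle by role and by other list, in percent of the genes tested, with counts lower and higher at the right of each bar. The 6 roles lie to the left in both panels, and the G2/M list turns from 24 of 24 lower to 23 of 24 higher.

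The members also varied together within groups. Over the 18 tumours, after removing group means, the median correlation between pairs was 0.17 for members, 0.41 for snoRNP proteins and 0.06 for SSU processome genes, against 0.01 for all genes. Pairs share the same tumours, so this is a description.

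Tissue of other cells moved with the groups. The summed level of 17 macrophage markers ran from 34549 to 54890 in vehicle, 89243 to 110712 in NRAS-off and 14617 to 36941 in MEK inhibitor tumours, and 15 of 17 rose in the first comparison while 14 of 17 fell in the second. The sum of 14 fibroblast markers ran from 98641 to 116767, 228591 to 271848 and 150638 to 165457 in the same order, with 12 of 14 and 9 of 14 higher than vehicle. All 12 skeletal muscle markers rose in both. Their sum ran from 4183 to 21798 in vehicle, 40342 to 65120 in NRAS-off and 24116 to 58190 in MEK inhibitor tumours. Of the melanoma markers Sox10 (mean intensity 10605) and Mitf (708) were well above the filter, Dct was at 52.4, and Tyr (16.3) and Tyrp1 (16.5), enzymes of pigment, were below it. Of 7 tested melanocytic markers 5 rose in NRAS-off and 2 in MEK inhibitor tumours, and 0 fell. The sum of 11 endothelial markers ran from 1618 to 2492, 3054 to 4138 and 1909 to 2574 in the order vehicle, NRAS-off and MEK inhibitor. The sum of the 5 tested lymphoid markers of 8 ran from 897 to 1146, 1890 to 5058 and 508 to 842.

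Over the 9 tested keratinocyte markers of 12, 1 NRAS-off tumour (replicate 2) had a keratinocyte sum of 30819 against at most 1304 in the other 5. Without it and the MEK inhibitor tumour richest in muscle transcript (replicate 4), 51 and 48 members fell, as with all tumours.

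Macrophage and fibroblast levels lie mostly between the groups (86.5% and 97.9% of their variance). Fitted with both as covariates, 0 members and 0 of all genes tested passed the limma threshold in NRAS-off tumours, while the median member SE was 6.86 times as large. At an unadjusted p under 0.05 this fit gave 7 members lower and 0 higher, and 790 genes lower and 555 higher. In MEK inhibitor tumours 11 members fell (Polr1a, Nop56, Gar1, Heatr1, Rrp12, Tsr1, Ltv1, Nop2, Gnl3, Grwd1 and Ppan), against 1.59% of all genes, and 33 were lower at an unadjusted p under 0.05, beside 1305 of all genes. Fibroblast level and group cannot be told apart in these tumours.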

How the data were processed

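RNA of 18 tumours was read on Affymetrix arrays with a single dye. Values are intensity per probe set as deposited by the authors. Per the submitters' processing notes MAS5 and RMA were used, with neither role nor version given, so the scale of the values is not stated. They were read as linear because all are positive with array medians of 72.3 to 78.5, and any centring is unknown. Probe sets with 1 symbol in the platform annotation (34945 of 45037) were used, 932 had several symbols and 9160 no entry.

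For a gene with several probe sets the one of highest mean was taken, as log2(intensity + 16) of the deposited values. Genes at or below the 25th percentile (intensity 23.5) were left out, leaving 15005. One limma model (version 3.58.1, R 4.3.3) covered all 3 groups (15 residual degrees of freedom, prior 3.46), with Benjamini-Hochberg adjustment within each contrast and a threshold of 0.05. Same-group arrays correlated at 0.987 to 0.997. The number of arrays limits the precision. No batch or date was given, so none was tested. Figures used matplotlib 3.10.9 in Python 3.11.15.

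Values in every tumour are given for all Pol I members, for the 2 members per other role with the largest mean change, and for the 3 largest and 3 smallest differences between treated groups. Utp15 and Tcof1 were added after their values were seen. Members and lists were chosen with earlier results of these data known. The fit was tested on simulated data for NRAS-off minus vehicle over 15005 genes. It recovered 52%, 80%, 94% and 100% of genes changed 1.25-, 1.5-, 2- and 4-fold, with 8 false calls. In the simulation 50 genes were changed at each fold, and genes varied independently. In the data 59.3% of genes passed, so neither the recovery nor the false calls carry over to the reported calls. Alternatives were other filters, pseudocounts, probe set choices, scalings, priors, weights, sample sets, a replicate block, covariates and a stricter threshold. Testing every probe set on its own and leaving out 2 tumours together were chosen after seeing the data.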

Additional observations from a re-analysis of the deposited data

Results flagged for a closer look

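In 12 of 165 sets of 6 tumours (a member in a group), 1 tumour stood so far from the others that its gap to the nearest value, as a share of the whole range, was above Dixon's 95% critical value. Chance flags about 1 in 20 such sets. Of these, 6 lay in the MEK inhibitor group. The lowest MEK inhibitor tumour was replicate 3 for Polr1b at an intensity of 56.5, replicate 4 for Polr1e at 151 and for Ddx56 at 251, replicate 6 for Ubtf at 1015, and replicate 1 for Imp4 at 287. Replicate 2 was the highest for Ebna1bp2 at 880.0. In NRAS-off tumours replicate 1 was the highest for Nop58 at 911 and for Ltv1 at 1008, and replicate 5 was the lowest for Noc4l at 233. In vehicle tumours replicate 6 was the highest for Emg1 at 2651, replicate 5 for Rrs1 at 1672, and replicate 4 was the lowest for Ddx18 at 901.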

How the results depend on the processing

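Leaving out each tumour in turn gave 51 to 52 members lower in NRAS-off and 48 to 50 in MEK inhibitor tumours, with medians of −0.57 to −0.52 and −0.60 to −0.54. Between treated groups 6 to 12 were lower and 9 to 12 higher in NRAS-off. Correlations of same-numbered deviations ran from −0.14 to 0.27. Tumours of unlike number were not compared, so these values do not settle whether the numbers pair the tumours. With the replicate block 51 and 50 members fell, 9 were lower and 11 higher.

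Averaging all probe sets moved the medians to −0.43 (NRAS-off) and −0.50 (MEK inhibitor), and a pseudocount of 64 moved the MEK inhibitor median to −0.50. At an adjusted p under 0.01, 5 members were lower in NRAS-off than in MEK inhibitor tumours. With macrophage and fibroblast covariates 0 members were lower in NRAS-off tumours (median −0.42) and 11 in MEK inhibitor tumours, and between treated groups 0 were lower and 0 higher (median 0.21). At an unadjusted p under 0.05 this limma fit gave 7 lower in NRAS-off and 33 in MEK inhibitor tumours, and 3 lower and 6 higher between treated groups, beside 879 lower and 625 higher of all 15005 genes.

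Some members turned in sign. With all probe sets averaged Taf1d changed by −0.50 and −0.25, and the treated-group difference was 0.16 for Bop1 and 0.080 for Ddx18. With the most variable probe set Taf1d changed by −0.91 and −0.28, and the differences were 0.40 for Bop1, 0.090 for Ddx18 and −0.29 for Ddx21. With the covariates the NRAS-off change was 0.38 for Polr1d, 0.10 for Rrn3, 0.12 for Nhp2, 0.031 for Utp18, 0.60 for Nop14, 0.046 for Noc4l, 0.0165 for Rrp9, 0.69 for Ddx10, 0.52 for Pno1, 0.22 for Nob1, 0.76 for Pes1, 0.071 for Ddx56, 0.042 for Nip7 and 0.20 for Ncl. The MEK inhibitor change was 0.072 for Polr1d, 0.10 for Pes1 and 0.0063 for Ncl. The differences were 0.74 for Nop58, −0.0322 for Imp4, 0.17 for Ddx18 and 0.20 for Ncl. The cause was not tested.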
